A study of Homo sapiens with 12 samples.

Results

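The genes described here are the kinesins, the microtubule motor family, as bulk RNA-seq measured them in SNU638, a cell line established from a human gastric carcinoma. They were taken as every gene whose symbol is KIF with a number and an optional letter A to C, or KIFC with a digit, which gave 39 of the 17303 genes in the table. There were 12 libraries, 3 for each of 4 cell lines that had taken up a lentiviral hairpin and been selected with puromycin. The lines carried SKA2 hairpin 1, SKA2 hairpin 2, SKA2 hairpin 3 or a control hairpin, and the sample labels give the 3 hairpin lines as SKA2 knockdown and the control line as wt. Each hairpin is represented by 1 selected line, so what a hairpin did and what sets its line apart cannot be told apart. Whether the 3 libraries of a line were separate cultures is not stated, so p-values measure only the spread between those libraries, which may be technical.

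Kinesins are ATP-driven motors that walk along microtubules or take microtubule ends apart. Mitotic kinesins build the spindle, move chromosomes and close the cell at division, and their transcripts are made mostly in the G2 and M phases of the cell cycle. Transport kinesins carry organelles, vesicles and protein complexes through the cell. The family was divided into 13 mitotic kinesins, 17 transport kinesins and 9 others, which include KIF2A, a depolymerase with roles in spindles and neurons, and the motors of cilia and centrioles. Enough reads for a test were found for 34 of the 39, namely 13 mitotic, 14 transport and 7 other genes. SKA2, the target of the hairpins, encodes a subunit of a complex that holds chromosomes to spindle microtubules.

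Libraries held 14693343 to 16739155 counts. SKA2 held 26.0, 22.3 and 23.7 CPM with hairpin 1, 23.3, 25.3 and 27.2 with hairpin 2, 24.9, 26.9 and 28.0 with hairpin 3, and 126, 119 and 117 in the control line, where CPM are counts scaled to a common library size with TMM factors. Every hairpin library lay below every control library. The 6 epithelial markers were present in all lines, CLDN4 at only 3 to 17 counts and CDH1 at 25 to 140. The TPM of all 6 summed to 3130 to 3270 in hairpin 1 libraries and 1540 to 1650 in hairpin 2. The sum was 2770 to 3080 in hairpin 3 and 3250 to 3640 in control libraries. The part of this difference in the results was not tested. In any library the summed TPM was at most 2.87 for the 4 of 5 fibroblast markers in the table, 0.18 for 4 endothelial markers, 30.2 for 5 leukocyte markers and 9.6 for 4 of 5 neuron markers. The leukocyte markers disagreed: CD68 held 160 to 422 counts in every library. CD3E was at 0 in every hairpin 1, hairpin 2 and control library, and PTPRC in every hairpin 1 and hairpin 3 library. The slope of a library's log2 CPM, relative to the mean of all libraries, on log2 transcript length lay between 0.08 and 0.11 for hairpin 1, between 0.15 and 0.20 for hairpin 2, between -0.17 and 0.09 for hairpin 3 and between -0.32 and -0.06 for the control. Long transcripts were counted relatively more in all hairpin 1 and 2 libraries, and more in the first hairpin 3 and the first control library than in the others of their lines. Transport kinesins are long (median effective length 5538 bases, against 3914 for mitotic kinesins and 2883 for all genes tested). For kinesins, values with that trend taken out are therefore given beside results that it moves by over 1.5 times. Genes outside the family are given without that correction.

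With hairpin 2 the conventional kinesin heavy chain gene KIF5B was the most abundant kinesin transcript per length, at 168 ± 19.9 TPM, against 54.7 ± 21.6 TPM in the control line (SD, n = 3 each). The transport motor KIF1C came next with hairpin 2, at 94.4 ± 2.71 TPM, against 74.2 ± 6.05 TPM in the control line. The direction differed by scale: in CPM the fitted log2 change of KIF1C was -0.05 and not called, and -0.58 and called lower with the trend taken out. In the control line the highest levels were those of mitotic kinesins. KIF2C, a depolymerase at centromeres, held 46.5 ± 3.33 TPM with hairpin 2, against 134 ± 7.89 TPM in the control line. KIF22, a chromosome arm motor, held 67.7 ± 1.63 and 129 ± 3.80 TPM in the same lines, and its control level did not differ from that of KIF2C beyond their spread. KIFC1, which crosslinks spindle microtubules and moves to their minus ends, held 47.5 ± 1.37 TPM with hairpin 2, against 90.8 ± 9.40 TPM in the control line, where KIF1C and KIF23, a part of centralspindlin at the midzone, came after it. The fold changes that follow are from CPM. With hairpin 2 the falls of KIF2C, KIF22 and KIFC1 were larger in CPM than in TPM, and the rise of KIF5B was smaller.

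As a family, the kinesins were called about as often as other genes. With hairpin 2, 24 of 34 passed the test, where 74.4% of all 12868 genes tested did (edgeR's quasi-likelihood test, Benjamini-Hochberg adjusted p under 0.05). With hairpin 1 it was 20 of 34, where 63.1% of all genes passed, and with hairpin 3 it was 17 of 34, where 47.6% did. All hairpin 2 libraries lay above all control libraries for 9 kinesins and below them for 15, where this held for 38.2% and 38.8% of all genes. The same counts were 14 and 7 with hairpin 1 (35% and 34.2% of all genes) and 12 and 6 with hairpin 3 (22.4% and 23.7%).

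Mitotic kinesins fell with hairpin 2. Of 13 tested, 10 were lower and 0 higher, where 37.8% of all genes were called lower and 36.6% higher. Their median log2 fold change was -1.19, against -0.02 over all genes tested. With the length trend taken out, 12 of 13 were lower, where 37.2% of all genes were, and the median was -1.20. The counts depend on the classes: KIF2A, which has spindle roles but was placed among the others, was called higher with hairpin 2. Its log2 fold change was 0.98, or 0.25 with the trend taken out. When each library was left out in turn, 9 or 10 of 13 were lower, with medians from -1.25 to -1.12. In bulk libraries, fewer cells in mitosis and less of these transcripts per cell cannot be told apart.

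KIF2C (Entrez 11004), which strips tubulin from microtubule ends to free wrongly attached chromosomes, changed most among mitotic kinesins. Its level was 169, 169 and 163 CPM with hairpin 1, 60.4, 59.6 and 64.5 with hairpin 2, 183, 189 and 190.0 with hairpin 3, and 224, 245 and 255 in the control line. Every hairpin 2 library lay far below all others, and the hairpin 1 and 3 libraries lay between them and the control libraries without overlap. The log2 fold change was -1.97 ± 0.07 with hairpin 2, -0.53 ± 0.06 with hairpin 1 and -0.36 ± 0.06 with hairpin 3 (SE, n = 3 per line; edgeR adjusted p = 7.97e-10, 4.54e-05 and 0.000685). It was the single mitotic kinesin lower with all 3 hairpins. Its place is chromosome 1 from 44739818 to 44767767 on the plus strand (GRCh38, GENCODE v29).

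The motors that form the bipolar spindle went apart by hairpin. KIF11 (Entrez 3832), which slides spindle poles apart and is the target of several antimitotic compounds, held 209, 209 and 213 CPM with hairpin 1, 75.4, 82.8 and 81.8 with hairpin 2, 255, 184 and 177 with hairpin 3, and 167, 141 and 119 in the control line. Hairpin 2 libraries lay below and hairpin 1 and 3 libraries above all control libraries. KIF11 changed by -0.83 ± 0.14 with hairpin 2 and by 0.56 ± 0.14 and 0.53 ± 0.14 with hairpins 1 and 3 (log2 fold change, SE; edgeR adjusted p = 0.000247, 0.00505 and 0.0100). With the length trend taken out these were -1.22, 0.26 and 0.37. Without the first hairpin 3 library its rise with hairpin 3 was 0.34. KIF15 (Entrez 56992), which can take over from KIF11, behaved likewise, at 69.2, 69.0 and 70.6 CPM with hairpin 1, 21.8, 18.9 and 20.4 with hairpin 2, 78.2, 63.8 and 60.6 with hairpin 3, and 57.8, 51.2 and 45.9 in the control line. Its log2 fold changes were -1.34 ± 0.11, 0.43 ± 0.11 and 0.39 ± 0.11 with hairpins 2, 1 and 3, and -1.65, 0.17 and 0.25 with the trend taken out. KIFC1 (Entrez 3833), whose minus-end pull opposes KIF11, held 128, 127 and 123 CPM with hairpin 1, 50.3, 49.3 and 48.9 with hairpin 2, 141, 143 and 139 with hairpin 3, and 130.3, 134 and 134 in the control line. It fell with hairpin 2 by 1.42 on the log2 scale, 62.7% below the control, while its values with hairpins 1 and 3 were -0.08 ± 0.05 and 0.09 ± 0.05 and did not pass the test. With the trend taken out KIFC1 was called higher with hairpin 3 (0.17).

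Chromosome motors were lower with hairpin 2 as well. KIF4A (Entrez 24137), a chromosome-bound motor that also sets the length of the midzone, held 47.0, 44.2 and 42.2 CPM with hairpin 2, against 121, 103 and 112 in the control line, a log2 fold change of -1.33 ± 0.08. KIF22, which pushes chromosome arms away from the poles, held 64.6, 65.3 and 62.9 CPM with hairpin 2, against 142, 168 and 189.8 in the control line, and changed by -1.37 ± 0.11. The hairpin 2 libraries of both lay below all control libraries. KIF22 also passed the test with hairpin 1 (-0.33 ± 0.11, edgeR adjusted p = 0.0217), but not without the second or the third library of either line (log2 fold changes from -0.35 to -0.22) or with the length trend taken out (-0.11). KIF18B, a plus-end depolymerase of astral microtubules, fell by 1.27 with hairpin 2. KIF18A, which damps chromosome movements at the metaphase plate, changed least among the called ones, at -0.33 ± 0.12, and lost its call without the first control library (-0.22, edgeR adjusted p = 0.0910) or the third of hairpin 2 (-0.32).

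Among the motors of cytokinesis, KIF20A (Entrez 10112) showed the widest separation of hairpins. KIF20A, which brings the chromosomal passenger complex to the midzone, held 70.4, 72.2 and 79.5 CPM with hairpin 1, 25.4, 24.8 and 24.4 with hairpin 2, 96.5, 88.5 and 92.6 with hairpin 3, and 57.4, 52.5 and 52.7 in the control line. All hairpin 2 libraries were below, and all hairpin 1 and 3 libraries above, the control libraries. The log2 fold changes were -1.12 ± 0.07 with hairpin 2, 0.45 ± 0.07 with hairpin 1 and 0.77 ± 0.07 with hairpin 3 (edgeR adjusted p = 1.20e-07, 0.000306 and 6.43e-06). KIF23 fell with hairpin 2 (-1.19 ± 0.10) and did not pass the test with hairpins 1 and 3 (0.03 ± 0.10 and 0.17 ± 0.10). KIF14, which recruits citron kinase to the midbody, and KIF20B, needed for abscission, are the longest mitotic transcripts here, at 6788 and 6047 bases. With hairpin 2 their values were -0.35 ± 0.28 and -0.19 ± 0.20, which did not pass the test, and with the length trend taken out they were called lower at -0.99 and -0.76. KIF4B, an intronless near copy of KIF4A whose reads may be shared with it, held 0.201, 0.579 and 0.395 CPM with hairpin 2, against 1.14, 0.582 and 0.128 in the control line, and with all libraries it passed no test against the control.

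**Figure D1:**
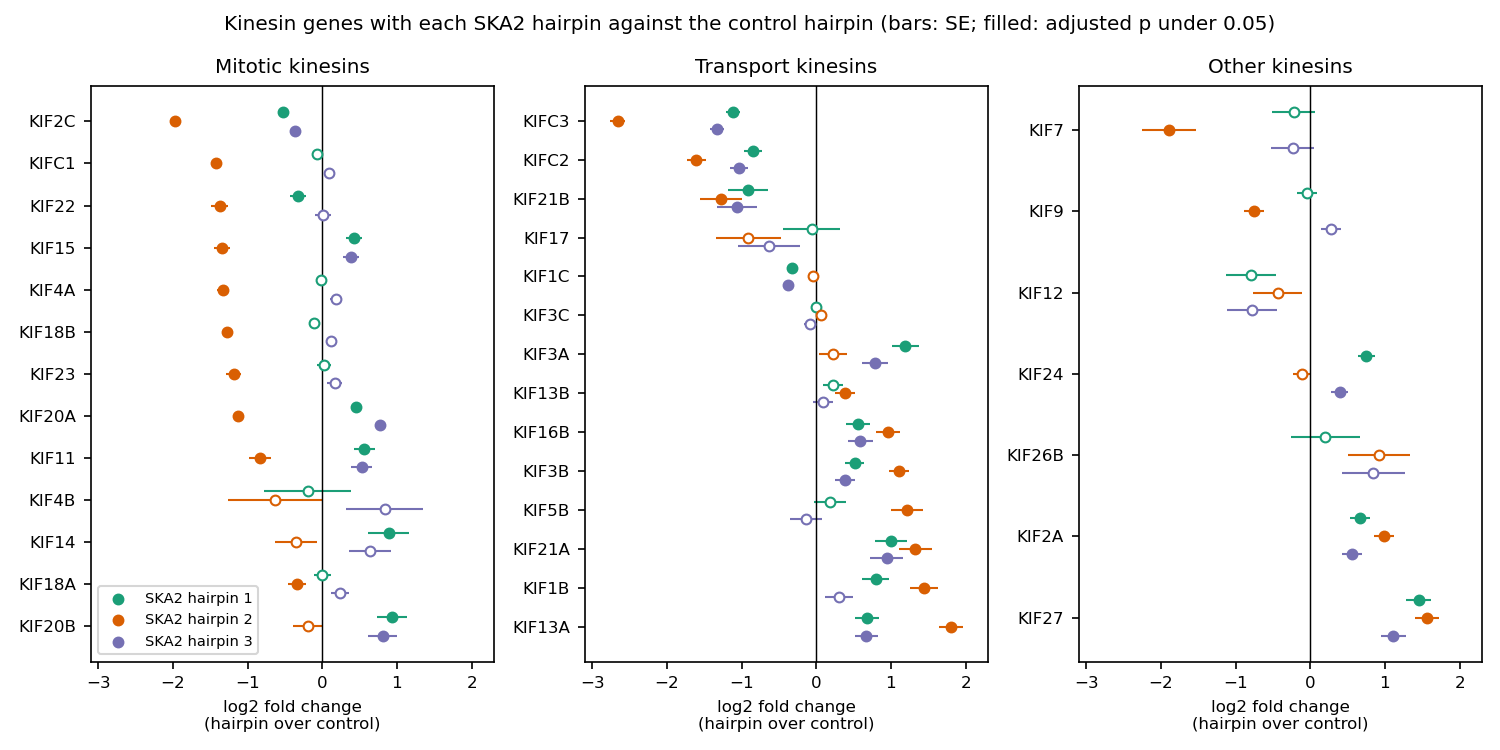
Log2 fold change of each of the 34 tested kinesins with SKA2 hairpin 1, 2 or 3 over the control hairpin, by class. Bars are SE from 3 libraries per line, and filled points passed an adjusted p of 0.05. With hairpin 2, 10 of 13 mitotic kinesins stand filled to the left of 0.

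With hairpins 1 and 3 the mitotic kinesins did not move as a block. With hairpin 1, 5 of 13 were higher and 2 lower, where 31.5% of all genes were called in each direction, and the median was 0.003. The 5 were KIF11, KIF14, KIF15, KIF20A and KIF20B. With the length trend taken out KIF2C, KIF18B and KIF4A were lower with hairpin 1 (-0.48, -0.31 and -0.25), where 30.9% of all genes were lower. KIF22 lost its call in that setting (-0.11). With hairpin 3, 4 of 13 were higher and 1 lower, where 23.6% of all genes were called higher and 24% lower, and the median was 0.24. Without the first control library, 8 of 13 were higher with hairpin 3, where 29.2% of all genes were called higher, and without the first hairpin 3 library as well it was 8 of 13, where 30.7% were. In a fit of hairpin 3 and control alone, with the replicate number as a block, 10 of 13 were higher, where 35.9% of all genes were. KIF2C stayed lower there (-0.36). That fit of 6 libraries leaves few residual degrees of freedom. With the block in all 12 libraries, only KIF11, KIF14, KIF15, KIF20A and KIF20B of the class were called higher with hairpin 3, where 24.5% of all genes were. KIF20B held 129.5, 131 and 133 CPM with hairpin 1, 52.6, 61.7 and 67.2 with hairpin 2, 164, 101 and 97.5 with hairpin 3, and 86.4, 63.2 and 57.2 in the control line. It rose with hairpins 1 and 3 (0.93 ± 0.20 and 0.81 ± 0.20), by 0.49 and 0.58 with the length trend taken out and by 0.52 with hairpin 3 without its first library. KIF14 rose with hairpin 1 (0.89 ± 0.28), a call that was lost without the second or the third control library (0.81 and 0.68). With the trend taken out its rise was 0.40.

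The lines differ little in SKA2 itself, so the hairpins were also compared with each other. Hairpin 2 against hairpin 1 gave 12 of 13 mitotic kinesins lower, where 29.4% of all genes were called lower and 57.6% in either direction. Hairpin 2 against hairpin 3 gave 13 of 13 lower, where 33.4% of all genes were called lower and 65.3% in either direction. The medians were -1.24 and -1.39. SKA2 changed by 0.07 ± 0.08 and -0.07 ± 0.08 in the same comparisons and passed neither test (edgeR adjusted p = 0.473 and 0.452). KIF4B was the exception against hairpin 1 (-0.44 ± 0.65). KIF18A, at -0.34 ± 0.12, lost its call against hairpin 1 without any 1 of 5 libraries, namely the second or the third of hairpin 1 and each of hairpin 2 (-0.34 to -0.31). Against hairpin 3 the call of KIF4B, at -1.47, was lost without any 1 of 4 libraries (-1.57 to -1.10). These were the first or the third of hairpin 2 and the first or the second of hairpin 3. Hairpin 3 against hairpin 1 called 1 of all 34 kinesins, KIF20A (0.32 ± 0.07), where 9.45% of all genes were called, 4.75% higher and 4.7% lower. That call was lost when any single library of hairpin 1 other than the third, or the second or the third of hairpin 3, was left out (0.29 to 0.35). Without the first hairpin 3 library this comparison called 6 kinesins higher and 7 lower, where 19.5% and 21% of all genes were called. Without the first control library as well it called 7 higher and 13 lower, where 28.2% and 28.9% were. Hairpins 1 and 3 were thus not shown to act alike on the family.

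**Figure D2:**
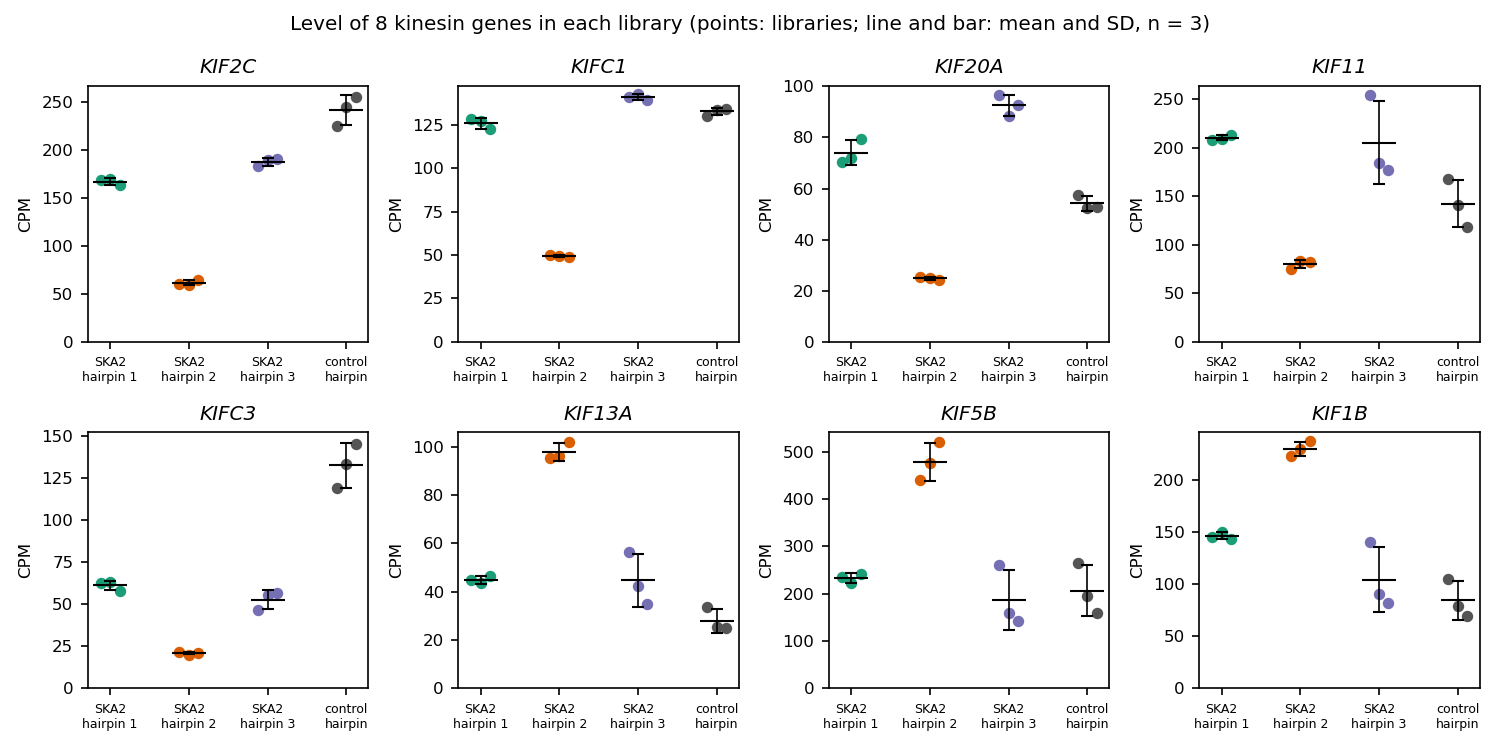
CPM of 4 mitotic kinesins (top row) and 4 transport kinesins (bottom row) in every library. Points are libraries, and the line and bar give the mean and SD of 3. The hairpin 2 libraries are the lowest for KIF2C, KIFC1, KIF20A, KIF11 and KIFC3 and the highest for KIF13A, KIF5B and KIF1B.

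Short sequences known from mitotic genes were found in most promoters of the mitotic kinesins. The classes and motifs were chosen with earlier results of these data known, and the class was picked by mitotic role. The shares below are therefore a description and no test. Many genes of the G2 and M phases carry a cell cycle genes homology region (CHR), read here as TTTGAA or TTCGAA on either strand, and CCAAT boxes bound by the factor NF-Y. RefSeq windows of 300 bases (GRCh38.p14), from 250 bases before the gene's start, were at hand for 13 mitotic, 12 transport and 7 other kinesins. A CHR match was found in 11 of 13 mitotic kinesins, 1 of 12 transport kinesins and 1 of 7 others, and in 16.9% of the 13822 genes of the table with a window. Within 90 bases before to 10 bases after the start, 10 of 13 mitotic and 0 of 12 transport kinesins held one, against 5.35% of genes. For CCAAT the same stretch gave 10 of 13, 2 of 12 and 25% (either strand), and the CHR and CCAAT letters can share at most 1 base. A match is a description of letters and not a bound site, and no match says only that these letters are not in this window.

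These 100-base stretches are shown to set the matches of mitotic kinesins that fell with hairpin 2 beside 2 mitotic kinesins that fell without a CHR match and 2 transport kinesins that rose. Each is written 5′ to 3′ on the gene's strand, from 90 bases before the RefSeq start, and capitals mark CHR and CCAAT matches. On the other strand the TTTGAA form reads TTCAAA, and the box reads ATTGG.
KIF4A (chrX:70290014-70290113, plus strand): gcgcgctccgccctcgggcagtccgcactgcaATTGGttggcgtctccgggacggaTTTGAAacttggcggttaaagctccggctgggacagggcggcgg
KIF11 (chr10:92593040-92593139, plus strand): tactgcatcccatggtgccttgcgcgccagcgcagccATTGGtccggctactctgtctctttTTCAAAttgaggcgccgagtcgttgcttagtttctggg
KIF15 (chr3:44761704-44761803, plus strand): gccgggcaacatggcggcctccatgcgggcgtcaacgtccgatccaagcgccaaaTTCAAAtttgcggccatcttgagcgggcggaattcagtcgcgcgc
KIF23 (chr15:69414259-69414358, plus strand): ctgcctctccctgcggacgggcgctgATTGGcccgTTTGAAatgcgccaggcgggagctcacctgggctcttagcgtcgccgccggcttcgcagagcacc
KIF22 (chr16:29790661-29790760, plus strand): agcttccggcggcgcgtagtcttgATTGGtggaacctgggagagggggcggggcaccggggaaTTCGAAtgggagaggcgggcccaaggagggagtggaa
KIFC1 (chr6:33391733-33391832, plus strand): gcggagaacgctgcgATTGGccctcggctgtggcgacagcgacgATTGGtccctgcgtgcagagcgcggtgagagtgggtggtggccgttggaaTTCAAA
KIF2C (chr1:44739747-44739846, plus strand): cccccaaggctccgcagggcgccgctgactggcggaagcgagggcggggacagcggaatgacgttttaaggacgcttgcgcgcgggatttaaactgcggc
KIF20A (chr5:138179022-138179121, plus strand): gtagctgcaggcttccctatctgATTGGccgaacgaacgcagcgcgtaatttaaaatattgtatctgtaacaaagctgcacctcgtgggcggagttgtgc
KIF5B (chr10:32056416-32056515, minus strand): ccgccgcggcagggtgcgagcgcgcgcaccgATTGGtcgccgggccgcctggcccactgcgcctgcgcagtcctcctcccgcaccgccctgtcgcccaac
KIF13A (chr6:17987626-17987725, minus strand): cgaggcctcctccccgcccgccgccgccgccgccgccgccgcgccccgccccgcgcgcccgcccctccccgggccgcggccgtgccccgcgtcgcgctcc

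KIF4A and KIF23 carry the CHR letters 34 and 55 bases before the start on the sense strand, and KIF11 and KIF15 carry them 28 and 35 bases before it on the other strand. KIF22 holds the TTCGAA form 27 bases before its first listed start. KIFC1 holds its match just inside the transcript, beginning at base 5. KIF2C and KIF20A have no CHR match in 300 bases, although KIF2C had the largest fall of the class and KIF20A fell by 1.12. KIF20B, which was not called with hairpin 2, holds CHR letters at bases 25 and 31 after its start. KIF5B holds 1 CHR match, 140 bases before the start and outside the stretch printed, and KIF13A has neither motif.

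**Figure D3:**
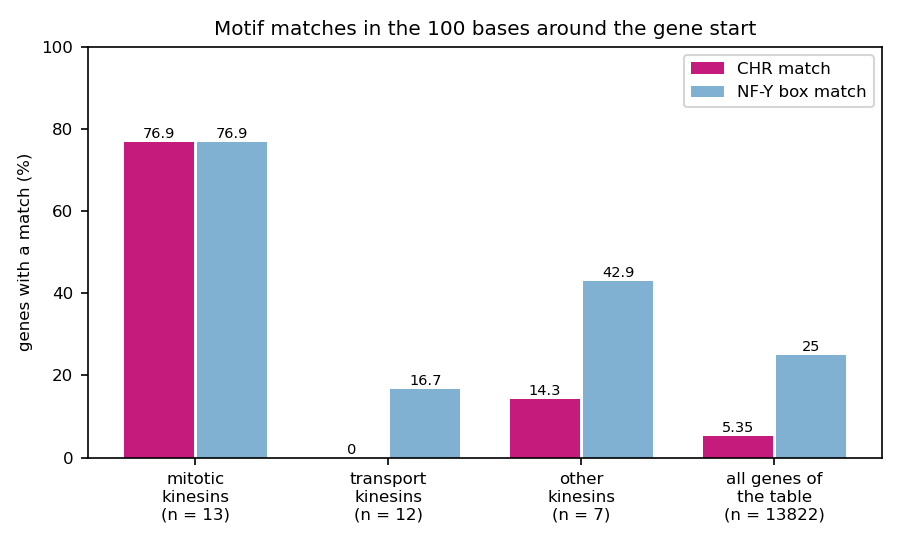
Share of genes with a CHR match and with a CCAAT match (NF-Y box) from 90 bases before to 10 bases after the RefSeq start, on either strand. Bars give percent of the genes with a promoter window. CHR matches were found in 76.9% of 13 mitotic kinesins, 0% of 12 transport kinesins and 5.35% of all genes of the table.

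Partners of the mitotic kinesins were read from a list of 27 spindle, passenger and mitotic genes, which holds CENPE, a kinesin whose symbol lies outside the rule. With hairpin 2, 22 were lower and 1 higher, with a median of -1.09, where 37.8% of all genes were lower and 36.6% higher. With hairpin 1, 11 were higher and 2 lower (median 0.15), where 31.5% of all genes were called each way. With hairpin 3, 16 were higher and 1 lower (median 0.34), where 23.6% and 24% were. TPX2, which targets KIF11 and Aurora A to the spindle, held 143, 140.2 and 139 CPM with hairpin 2, against 390.3, 380.5 and 385 in the control line, a change of -1.45 ± 0.05. PRC1, the midzone bundler that KIF4A binds, changed by -1.61 ± 0.06, and DLGAP5, a spindle assembly factor, by -1.63 ± 0.07. CENPE changed by -0.52 ± 0.16, 0.60 ± 0.15 and 0.62 ± 0.15 with hairpins 2, 1 and 3 (edgeR adjusted p = 0.0102, 0.00560 and 0.00695). It was named here after its values were seen. Its transcript is long, at 7979 bases, and the length trend was not taken out of its values, so their size and calls may depend on it.

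Transport kinesins went in both directions. With hairpin 2, 7 of 14 were higher and 3 lower, where 36.6% and 37.8% of all genes were called, and the median was 0.30. With hairpin 1, 6 were higher and 4 lower (median 0.20), where 31.5% of all genes were called each way. With hairpin 3, 5 were higher and 4 lower (median 0.003), where 23.6% and 24% were. All 3 medians changed sign with the length correction. With the length trend taken out they were -0.33, -0.23 and -0.24 with hairpins 2, 1 and 3. In that setting 6, 3 and 5 genes were higher, where 36.4%, 29.3% and 27.2% of all genes were. Lower were 8, 6 and 7, where 37.2%, 30.9% and 28.1% of all genes were. Without the first control library the medians were 0.45 and 0.38 with hairpins 2 and 1. With the replicate block in the 6 libraries of hairpin 3 and control, 6 were higher and 5 lower, where 35.9% and 35.5% of all genes were called.

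KIF13A rose most of all kinesins with hairpin 2. KIF13A (Entrez 63971), a kinesin-3 motor of endosomes and melanosomes, held 44.6, 43.4 and 46.4 CPM with hairpin 1, 95.1, 96.0 and 102 with hairpin 2, 56.5, 42.4 and 35.0 with hairpin 3, and 33.8, 25.3 and 25.0 in the control line. Hairpin 2 libraries stood well above the rest, and every hairpin library lay above every control library. The log2 fold changes were 1.80 ± 0.16, 0.68 ± 0.16 and 0.67 ± 0.16 with hairpins 2, 1 and 3 (edgeR adjusted p = 1.36e-06, 0.00335 and 0.00505), and 1.17, 0.19 and 0.43 with the length trend taken out. KIF21A (Entrez 55605), a kinesin-4 motor that halts microtubule growth at the cell cortex, held 45.5, 47.3 and 46.7 CPM with hairpin 1, 54.4, 58.7 and 61.8 with hairpin 2, 59.5, 37.3 and 37.1 with hairpin 3, and 31.9, 20.3 and 17.5 in the control line. All hairpin libraries lay above all control libraries. KIF21A rose by 1.33, 1.00 and 0.94 with hairpins 2, 1 and 3, and by 0.78, 0.58 and 0.73 with the trend taken out. KIF16B, which carries early endosomes, rose with hairpins 2, 1 and 3 by 0.96, 0.56 and 0.59, and with the trend taken out by 0.52 and 0.43 with hairpins 2 and 3, while its call with hairpin 1 was lost (0.21).

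KIF5B (Entrez 3799), the ubiquitous conventional kinesin that moves mitochondria and lysosomes, held 235, 223 and 243 CPM with hairpin 1, 441, 475 and 521 with hairpin 2, 259.9, 160.0 and 142 with hairpin 3, and 264, 196 and 159 in the control line. Hairpin 2 libraries exceeded all others, while the hairpin 1 and 3 libraries overlapped the controls. Its log2 fold change was 1.22 ± 0.22 with hairpin 2 (edgeR adjusted p = 0.000317) and 0.72 with the length trend taken out. Within the control line the first library held 264 CPM and the third 159, and within the hairpin 3 line 259.9 and 142. Without the first hairpin 3 library KIF5B was called lower with hairpin 3 (-0.45), as it was with the length trend taken out (-0.34). KIF1B (Entrez 23095), a kinesin-3 motor of mitochondria and synaptic vesicle precursors, had the longest transcript of the risen ones, at 9917 bases. It held 146, 150.3 and 144 CPM with hairpin 1, 224, 230.4 and 238 with hairpin 2, 141, 90.5 and 82.6 with hairpin 3, and 105, 79.1 and 69.2 in the control line. Its rise of 1.45 ± 0.19 with hairpin 2 was 0.56 with the trend taken out, and that of 0.79 ± 0.19 with hairpin 1 was 0.09 and no longer called (edgeR adjusted p = 0.137). KIF13B, a relative of KIF13A, was the one gene of the class whose call turned round. With hairpin 2 it was higher at 0.38 ± 0.14, a call lost when any of 4 libraries was left out (the second or the third control, the first or the third of hairpin 2), down to 0.31, and with the trend taken out it was lower at -0.42 (edgeR adjusted p = 0.000416).

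The subunits of heterotrimeric kinesin-2, which drives intraflagellar transport, differed from each other. KIF3A held 69.0, 68.1 and 67.2 CPM with hairpin 1, 30.9, 35.9 and 37.8 with hairpin 2, 67.9, 45.1 and 41.6 with hairpin 3, and 35.9, 29.4 and 24.2 in the control line. It was higher with hairpins 1 and 3 (1.19 ± 0.18 and 0.79 ± 0.18) and not called with hairpin 2 (0.22 ± 0.18), where it was called lower with the length trend taken out (-0.28). Hairpin 2 lay below hairpin 1 and hairpin 3 (log2 differences of -0.96 ± 0.18 and -0.56 ± 0.18, edgeR adjusted p = 0.000657 and 0.0159), or -1.08 and -0.87 with the trend taken out. The second difference was -0.32 without the first hairpin 3 library and was not called without the first hairpin 2 library (-0.48). KIF3B, its partner, held 119.5, 128 and 121 CPM with hairpin 1, 187, 182 and 185 with hairpin 2, 131, 107 and 97.5 with hairpin 3, and 104, 82.7 and 70.8 in the control line. This gene was highest with hairpin 2 (1.10 ± 0.13, or 0.56 with the trend taken out) and rose by less with hairpin 1 (0.51 ± 0.13), where the trend taken out left 0.09 and no call. With hairpin 3 its value of 0.38 was 0.18 with the trend taken out, and it lost its call without the second or the third control library or the first hairpin 3 library (0.25 to 0.35). KIF3C, the alternative partner of KIF3A, stayed between 27.4 and 32.7 CPM in all libraries and passed no test. With the trend taken out it was called lower with every hairpin (-0.39, -0.36 and -0.25 with hairpins 2, 1 and 3).

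The transport kinesins with a motor at the C-terminal end fell. KIFC3 (Entrez 3801), a minus-end motor tied to adherens junctions and Golgi position, held 62.5, 63.3 and 57.9 CPM with hairpin 1, 21.8, 20.1 and 21.2 with hairpin 2, 46.4, 55.3 and 56.8 with hairpin 3, and 119, 133 and 146 in the control line. Hairpin 1 and 3 libraries lay under 64 CPM, hairpin 2 libraries under 22 CPM and control libraries above 118 CPM, with no overlap to the control line. Its log2 fold change of -2.66 ± 0.10 with hairpin 2 was the largest of any kinesin, beside -1.12 ± 0.09 and -1.33 ± 0.09 with hairpins 1 and 3 (edgeR adjusted p = 2.12e-09, 3.60e-06 and 9.24e-07). With the length trend taken out the values were -2.74, -1.21 and -1.38 in the same order. Its place is chromosome 16 from 57758217 to 57863053 on the minus strand. KIFC2, a second C-terminal motor known mainly from neurons, held 45.0, 42.0 and 42.3 CPM with hairpin 1, 26.9, 25.9 and 23.5 with hairpin 2, 29.9, 43.2 and 40.3 with hairpin 3, and 71.0, 75.5 and 85.3 in the control line. Hairpin libraries stood below all control libraries, with log2 fold changes of -1.60 ± 0.13, -0.84 ± 0.12 and -1.03 ± 0.12 with hairpins 2, 1 and 3. KIFC2 shares 17.8% of its exonic bases with FOXH1 on the opposite strand, whose libraries held at most 0.759 CPM, and the labels name no strand-specific counting. KIF21B, a relative of KIF21A, fell with hairpins 2, 1 and 3 (-1.27 ± 0.28, -0.91 ± 0.27 and -1.06 ± 0.27) or -2.12, -1.59 and -1.39 with the trend taken out, at a level of only 0.336, 0.836 and 0.527 CPM with hairpin 2, against 1.20, 1.42 and 1.53 CPM in the control line. KIF1C, which carries integrin-bearing vesicles, was lower with hairpins 1 and 3 (-0.33 ± 0.05 and -0.37 ± 0.05, or -0.74 and -0.56 with the trend taken out) and passed the test with hairpin 2 only with the trend taken out (-0.58, against -0.05 without).

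**Figure D4:**
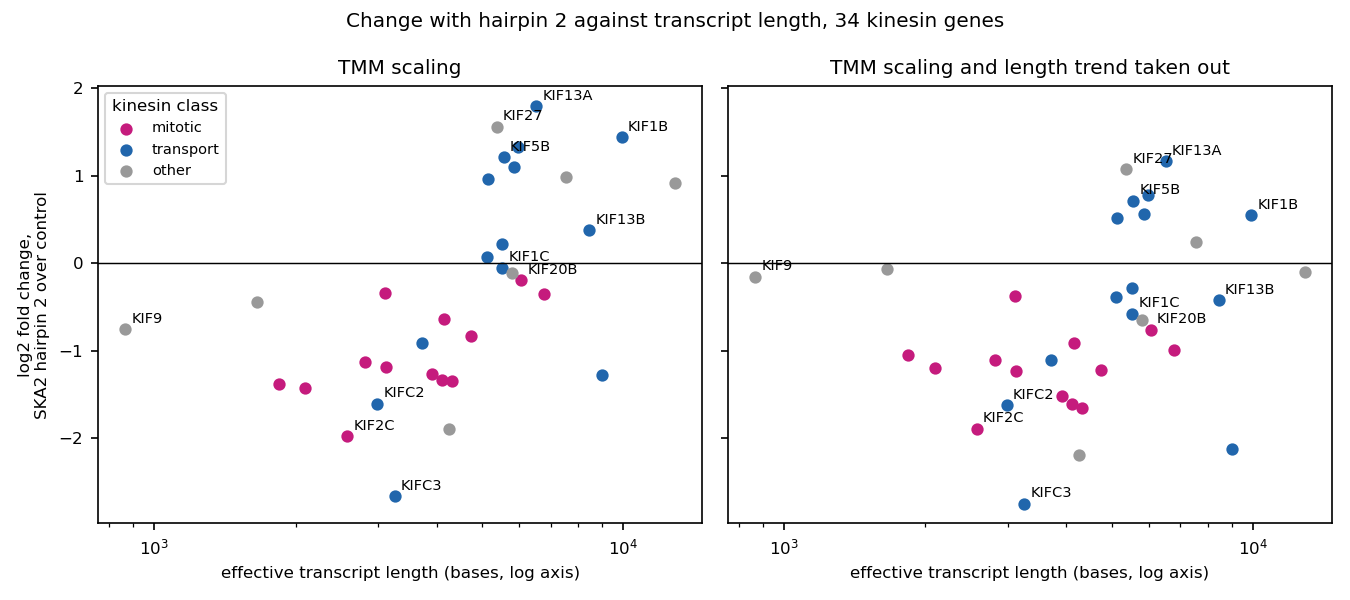
Log2 fold change of 34 kinesins with hairpin 2 over the control line against effective transcript length on a log axis, by class. The left panel has TMM scaling and the right panel also has the length trend of each library taken out. Among the labelled genes KIF13A, KIF5B and KIF1B stay above 0 in both panels, KIF13B crosses 0, and KIFC3, KIFC2 and KIF2C stay below -1.5.

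Partners of transport were read from a list of 34 light chains, adaptors and cargo linkers, of which 29 were tested. With hairpin 2, 15 were higher and 7 lower (median 0.36), where 36.6% and 37.8% of all genes were called. With hairpin 1, 6 were higher and 11 lower (-0.02), where 31.5% were called each way, and with hairpin 3, 5 were higher and 10 lower (-0.12), where 23.6% and 24% were. MAPK8IP3, a scaffold that links kinesin-1 and dynein to lysosomes, held 194, 188 and 181 CPM with hairpin 2, against 104, 99.6 and 107 in the control line, and rose by 0.86 ± 0.06. MAPK8IP1, a kinesin-1 cargo scaffold, fell with hairpins 2, 1 and 3 (-1.74 ± 0.12, -0.99 ± 0.12 and -1.32 ± 0.12), and so did FEZ2, a kinesin adaptor (-0.88, -0.42 and -0.28 in the same order). Of 29 tested dynein and dynactin genes, 12 were higher and 9 lower with hairpin 2, near the 36.6% and 37.8% of all genes, with a median of 0.06. DYNLT1, a dynein light chain, came first in that list by adjusted p, at 11.8, 11.9 and 10.6 CPM with hairpin 2 (-2.42 ± 0.15). In the control line it held 48.0, 65.5 and 70.2 CPM. The dynactin subunit DCTN5 (0.86 ± 0.08) and the dynein regulator PAFAH1B1 (1.01 ± 0.10) followed. The length trend was not taken out of these values. DCTN5, PAFAH1B1 and MAPK8IP3 have long transcripts, at 9498, 5011 and 5858 bases, and the part of the trend in their rises was not tested.

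**Figure D5:**
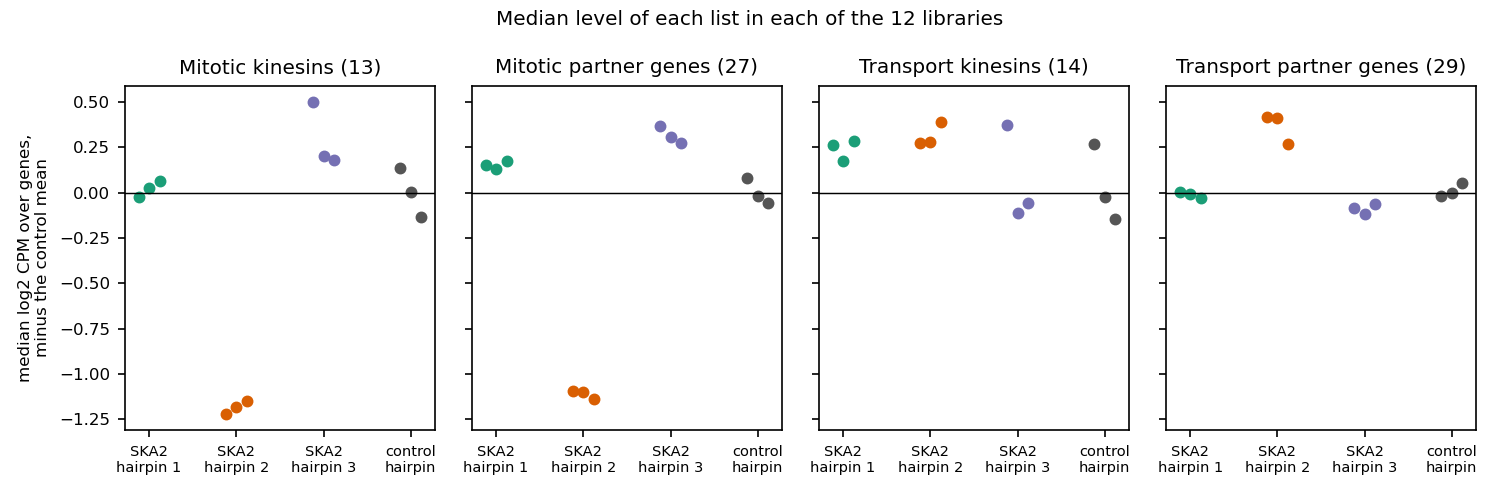
Median over each list of log2 CPM minus the control mean, in each of the 12 libraries, for mitotic kinesins and their partners and for transport kinesins and their partners. Points are libraries. The hairpin 2 libraries lie between -1.22 and -1.15 for mitotic kinesins and between -1.14 and -1.09 for their partners, and the first hairpin 3 and control libraries lie at 0.37 and 0.27 for transport kinesins.

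Among the other kinesins, KIF27 (Entrez 55582), a relative of the Hedgehog regulator KIF7 with a part in motile cilia, rose most. KIF27 held 12.6, 12.3 and 10.9 CPM with hairpin 1, 12.2, 13.9 and 12.7 with hairpin 2, 11.8, 8.10 and 8.41 with hairpin 3, and 5.07, 4.40 and 3.64 in the control line, and every hairpin library lay above every control library. It rose by 1.56 ± 0.16, 1.45 ± 0.16 and 1.11 ± 0.17 with hairpins 2, 1 and 3, and by 1.08, 1.07 and 0.93 with the length trend taken out. The 5 markers of ciliated cells had a summed TPM between 8.11 and 12.3 in the hairpin libraries and between 4.43 and 5.04 in the control libraries. Single markers disagreed with hairpin 2. DNAI1 was at 0 in every library, and FOXJ1 held 22, 37 and 19 counts, against 45, 41 and 52 in the control line. DNAH5 and CFAP43 lay above all control libraries, and RSPH1 overlapped them. With hairpin 1 FOXJ1 held 42, 52 and 43 counts. The part of these markers in the result was not tested. Annotated antisense transcripts share 6.77% and 8.58% of the exonic bases of KIF27. KIF2A held 125, 133 and 131 CPM with hairpin 1, 144, 165 and 176 with hairpin 2, 145, 109.8 and 104 with hairpin 3, and 94.0, 77.8 and 73.0 in the control line. It rose with hairpins 2, 1 and 3 (0.98 ± 0.13, 0.67 ± 0.13 and 0.56 ± 0.13), but with the trend taken out its value with hairpin 1 was 0.09 and not called, and with hairpins 2 and 3 it was 0.25 and 0.27. KIF24, which keeps centrioles from growing cilia, was higher with hairpins 1 and 3 (0.75 ± 0.12 and 0.39 ± 0.12, or 0.33 and 0.19 with the length trend taken out) and not called with hairpin 2 (-0.11 ± 0.12), where that correction gave a lower call (-0.65). Its call with hairpin 3 was lost without the second or the third control library or the first hairpin 3 library (0.28 to 0.34). Of the 12 transport and 7 other kinesins with a promoter window, KIF24 is the one with a CHR match near its start.

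KIF7, a regulator of Hedgehog signalling at the cilium tip, held 0.671, 0.257 and 0.198 CPM with hairpin 2, against 1.58, 1.42 and 1.21 in the control line, a change of -1.89 ± 0.36. It shares 11.8% of its exonic bases with TICRR, a DNA replication gene on the opposite strand, which held 22.2, 27.8 and 26.2 CPM with hairpin 2, against 49.8, 37.7 and 37.4 in the control line. TICRR changed by -0.71 ± 0.13 with hairpin 2, and reads of the 2 genes cannot be told apart where they overlap. KIF9, a motor of motile cilia, held 14.9, 14.5 and 12.7 CPM with hairpin 2, against 19.3, 23.9 and 27.9 in the control line, and was lower at -0.75 ± 0.14. Its estimated transcript is short, at 867 bases, and with the trend taken out the change with hairpin 2 was -0.15 and not called, while hairpins 1 and 3 gave 0.41 and 0.50 and were called higher. KIF12, KIF17 and KIF26B held at most 2.68 CPM in any library, and with all libraries none passed the test with any single hairpin. Without the second control library KIF12 was called lower with each hairpin, and KIF17 was called lower with hairpin 2 with the trend taken out (-1.11). Exonic bases are also shared with antisense or pseudogene annotation in KIF9 (14.9%), KIF22 (13%) and KIFC1 (12.7%), and with IPO11 on the same strand in KIF2A (8.97%), so part of their counts is uncertain. KIF1A, KIF5A, KIF5C, KIF6 and KIF25 did not pass the expression filter, and their highest count in any library was 13, in KIF5A with hairpin 2.

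Averaged over the hairpins, members of the family went in both directions. In the mean of the 3 hairpins against the control, 1 of 13 mitotic kinesins was higher and 6 lower (median -0.18). Of 14 transport kinesins, 6 were higher and 4 lower (median 0.33). Of all genes, 33.7% were called higher and 35.8% lower. The length trend was not taken out of this mean, and taking it out made the transport median negative with each single hairpin. This mean leaves out the spread between hairpins, and for KIF11, KIF15 and KIF20A it joins calls of opposite direction. Those were the 3 of 34 tested kinesins called higher with hairpin 1 and lower with hairpin 2, where 5.7% of all genes were called in opposite directions with these hairpins. Both comparisons share the control libraries. The difference between hairpins 2 and 1 does not use the control means and was -1.39 ± 0.14 for KIF11, -1.77 ± 0.11 for KIF15 and -1.57 ± 0.07 for KIF20A.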

How the data were processed

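RNA of 12 libraries was extracted with Trizol, enriched for polyadenylated mRNA and primed with random hexamers, per the labels' protocols, and sequenced on the BGISEQ-500. No strand-marking step is named. The submitters' processing notes name HISAT, Bowtie2, RSEM, DESeq2 and build GRCh38.p13 without roles. The table the authors deposited covers 17303 genes and gives, per the file headers, an expected count, an FPKM (scaled by transcript length and depth) and a TPM (scaled to a fixed sum) for each gene and library. Its 15 columns of group averages were not used.

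Expected counts were rounded. edgeR 4.0.16 (R 4.3.3) kept 12868 genes after its expression filter, scaled libraries by TMM, and fitted a quasi-likelihood model of the 4 lines to all libraries (8 residual degrees of freedom). Tests were two-sided, with Benjamini-Hochberg adjustment over all genes and a threshold of 0.05. SE is the absolute log2 fold change divided by the square root of F. Effective length is count divided by FPKM. The length trend is a lowess curve (span 0.3) of log2 CPM on log2 length per library, used as an offset. The scripts were tested on simulated counts.

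Same-numbered hairpin 3 and control libraries deviated together from their line means (correlations over genes 0.728, 0.17 and 0.6). The number was therefore taken as a block there, although the labels do not say what it marks. Unlike numbers gave -0.667 to 0.391, and the second control library correlated more with the third hairpin 3 library (0.23) than with the second. The pairing is therefore uncertain. For hairpins 1 and 2 against the control the same-numbered correlations were -0.247 to 0.0614. Full values were given for the called kinesins with the largest change (8 mitotic, 7 transport, 4 other), for those called in opposite directions, and for the 3 smallest adjusted p of each partner list with hairpin 2. The members, classes, lists and motifs were chosen with earlier results of these data known, so lists carry no test. Promoters are RefSeq windows (GRCh38.p14), and positions and exon overlaps are from GENCODE v29 (GRCh38).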

Additional observations from a re-analysis of the deposited data

Results flagged for a closer look

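For 18 of the 20 kinesins described in full, the effects of 2 hairpins differed in edgeR's test of the difference itself (adjusted p under 0.05). Of all genes, 57.6% were called for hairpin 2 minus 1, 65.3% for 2 minus 3 and 9.45% for 3 minus 1. The 20 were chosen for called changes against the control, so the count is no result about the family. The largest such difference of each gene is given here. Where the larger one was hairpin 2 minus hairpin 3, the mitotic kinesins KIF20A, KIF2C, KIF4A and KIFC1 gave -1.89, -1.61, -1.51 and -1.51 on the log2 scale. KIF18B, KIF22 and KIF23 gave -1.39, -1.38 and -1.35. Against hairpin 1, KIF15 gave -1.77 and KIF11 -1.39. Among transport kinesins, KIF5B, KIF1B and KIF13A were higher with hairpin 2 than with hairpin 3 by 1.36, 1.14 and 1.13 (1.05, 0.61 and 0.75 with the length trend taken out), while KIFC3 and KIFC2 were lower with hairpin 2 than with hairpin 1, at -1.54 and -0.76. Of the others, KIF7 was lower with hairpin 2 than with hairpin 1 (-1.67) and KIF9 lower than with hairpin 3 (-1.04, or -0.65 with the length trend taken out). KIF27 and KIF2A were higher with hairpin 2 than with hairpin 3 (0.45 and 0.43). With the length trend taken out neither was called, at 0.15 for KIF27 and -0.022 for KIF2A (edgeR adjusted p = 0.194 and 0.740). Both calls were also lost without the second or the third hairpin 3 library, at 0.35 and 0.37 for KIF27 and 0.37 and 0.34 for KIF2A, and that of KIF27 also without the second hairpin 2 library (0.40).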

How the results depend on the processing

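Of 2299 changes of the 20 kinesins described in full, taken over all alternatives, 2205 kept their direction and their side of the threshold, 21 fell out of the calls, 70 entered them and 3 turned round. Those 3 came with the length trend taken out: KIF9 with hairpin 1 (0.41), KIF2A with hairpin 2 over hairpin 3 (-0.022) and KIF13A with hairpin 3 over hairpin 1 (0.24). The same setting put the transport medians at -0.23, -0.33 and -0.24 with hairpins 1, 2 and 3. It put the kinesins lower with hairpin 3 at 8, where 28.1% of all genes were lower (5 and 24% without it). Fitted to their own 6 libraries, hairpin 3 and control gave 1590 genes higher and 1868 lower (3036 and 3086 with all libraries) and 7 kinesins higher (12 with all); the cause was not tested. With the replicate block in those 6 libraries, 20 kinesins were higher and 7 lower, and over all genes 4487 and 4436; in the 12 libraries the block gave 13 and 5 for hairpin 3. For hairpins 1 and 2, whose numbers were not taken to pair libraries, the block changed no count of kinesins. Leaving out 1 library at a time gave medians of -0.038 to 0.11 (mitotic) and 0.10 to 0.38 (transport) with hairpin 1, -1.25 to -1.12 and 0.20 to 0.45 with hairpin 2, and 0.18 to 0.35 and -0.08 to 0.15 with hairpin 3. All genes ranged from 3339 to 4502 higher and 3395 to 4506 lower with hairpin 1, and from 2163 to 3793 and 2482 to 3619 with hairpin 3. Kinesins higher with hairpin 3 ranged from 10 to 17. Leaving out the first control and the first hairpin 3 library together, chosen after seeing the data as was the 6-library block, gave 0.11 (mitotic) and 0.38 (transport) with hairpin 1 and 0.45 (transport) with hairpin 2. Calls at levels near 1 CPM (KIF4B, KIF7, KIF12, KIF17, KIF21B, KIF26B) are limited by depth.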
